A study of Homo sapiens with 2 samples.

Results

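The genes described here were grouped as cytoskeleton and membrane-cortex linker genes: FRMD5, SSPN, CDC42EP3, TTN and CCDC141. The deposited annotation gives no cytoskeletal term for CCDC141. The 5 genes were taken by gene symbol from the authors' deposited tables of probe sets at least 2-fold higher or lower after knockdown. They were therefore chosen on the same difference that is described below. The 5 genes have 1 listed probe set each, out of 190 genes named by a single symbol and 244 listed probe sets. One sample was Hep3B, an established human hepatocellular carcinoma line, with caveolin-1 knocked down by a hairpin (shCav1). The other was Hep3B with a non-target hairpin (shCtl). Both were grown in DMEM-HG medium, and total RNA of each was hybridised to 1 Affymetrix HG-U133 Plus 2.0 array, which holds 54613 probe sets besides its controls. The labels do not say whether either line was a clone or a pool.

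With 1 array per group there is no replicate spread and no test, and a hairpin effect cannot be told apart from any other difference between the cultures. Each value below is a single measurement whose precision is limited by the number of arrays. Signals in shCav1 were computed as the deposited shCtl signal multiplied by the fold of the deposited series values. In a bulk RNA sample, fewer expressing cells and less RNA per cell also cannot be told apart. The knockdown itself was visible: the CAV1 signal at its probe sets 212097_at and 203065_s_at was 61.8 and 38.7 in shCav1, against 935 and 524 in shCtl.

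Caveolae are plasma membrane pits whose caveolin coat is tied to the actin cortex below it. The cortex is joined to the membrane by linker proteins, among them members of the FERM-domain family and, best known from muscle, the dystrophin-glycoprotein complex. Small GTPases such as CDC42 direct where actin and septin filaments assemble. Titin is the giant elastic filament of the muscle sarcomere, and a liver cell line builds no sarcomeres.

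Of the 5 genes, 3 were higher in shCav1 and 2 were lower. As background, 28128 probe sets passed a brightness filter, by which the brighter array had to reach the overall median signal of 30.7. Of these, 0.501% were at least 2-fold higher and 0.299% at least 2-fold lower, or 141 and 84 probe sets, a split that came to 102 and 142 when the arrays were scaled to the hybridization spikes described below. Because the genes were selected by this limit, these shares are given for scale and nothing is read from the count. The median absolute log2 difference was 2.07 over the 5 genes, 1.22 over all listed probe sets and 0.14 over all kept probe sets. The 5 genes and the listed probe sets were chosen by this difference, so their place above the kept probe sets follows from that choice. The value of 2.07 is that of CDC42EP3, whose log2 difference was -1.10 with a pseudocount of 16 added to both linear signals. The listed probe sets nearest the limit were that of IAH1, 2.00042-fold higher, and that of GPX2, 2.01-fold lower by the larger-over-smaller ratio, while the nearest unlisted ones stood at log2 differences of 0.999999 and -0.999998. Of the 5 genes, SSPN and TTN lay closest to the limit.

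FRMD5 encodes a FERM-domain protein that has been placed at cell-cell contacts. Its signal at probe set 230831_at was 10.2 in shCav1, against 79.9 in shCtl. The shCav1 value lay below that overall median on the linear scale, called the array median below, and the shCtl value above it. The log2 difference was -2.97, so that the shCav1 signal was 12.8% of that in shCtl. The authors' deposited table gives a fold of 7.81, larger over smaller. Among 68 lower genes with a single symbol, FRMD5 ranked 2 by size of difference, after CAV1. The deposited alignment places the probe set on the minus strand of chromosome 15, positions 44162961 to 44163540, in band 15q15.3. The deposited alignments name no genome build.

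CDC42EP3 encodes an effector of CDC42 that binds the active GTPase and septins and takes part in actin rearrangement. Its signal at probe set 209288_s_at was 8.87 in shCav1, against 37.4 in shCtl. As for FRMD5, the shCav1 value was below the array median and the shCtl value above it, although here by a small margin. The log2 difference was -2.07, or 23.7% of the shCtl signal, and CDC42EP3 ranked 4 among the lower genes. The probe set aligns to the minus strand of chromosome 2, positions 37871982 to 37899299, in band 2p22.2.

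Both lower genes were dim in shCav1, where background takes a large share of a signal. With a pseudocount of 16 added to both linear signals, the log2 difference of FRMD5 was -1.87 and that of CDC42EP3 was -1.10. Both remained past 2-fold on that scale, and their order was the same.

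SSPN encodes sarcospan, a multi-pass membrane protein of the dystrophin-glycoprotein complex, which in muscle connects the actin cortex to laminin outside the cell. Its signal at probe set 226932_at was 637 in shCav1, against 283 in shCtl. Both values lay far above the array median. The log2 difference was 1.17, a 2.25-fold higher signal in shCav1, and it was 1.13 with the pseudocount of 16, the smallest shift among the 5 genes. SSPN ranked 74 of 122 higher genes. Its probe set aligns to the plus strand of chromosome 12, positions 26386413 to 26387710, in band 12p12.1.

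TTN encodes titin, which spans from the Z disc to the M band of the sarcomere and binds actin, alpha-actinin and telethonin. Its signal at probe set 208195_at was 51.5 in shCav1, against 23.1 in shCtl. The shCav1 value was above the array median and the shCtl value below it. The log2 difference was 1.16, a 2.23-fold higher signal in shCav1, and TTN ranked 79 of 122. With the pseudocount of 16 the log2 difference was 0.79, which is under 2-fold, so its place past the limit depends on how background is treated.

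CCDC141 encodes a coiled-coil protein, also called CAMDI, which in mouse binds DISC1 at the centrosome and is needed for the radial migration of cortical neurons. Its signal at probe set 1553645_at was 98.5 in shCav1, against 18.2 in shCtl. The values lay on opposite sides of the array median. The log2 difference was 2.43, a 5.40-fold higher signal in shCav1, and CCDC141 ranked 12 of 122 higher genes. With the pseudocount of 16 it was 1.74.

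**Figure D1:**
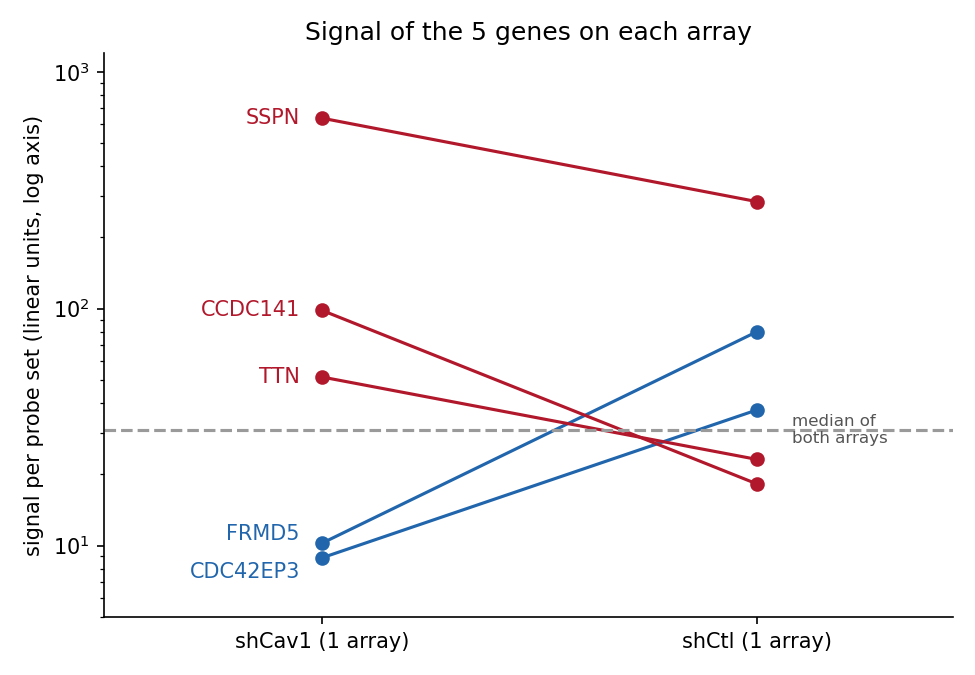
Signal of each gene's probe set (vertical axis, linear units on a log axis) on the shCav1 array (left) and the shCtl array (right), 1 array each, with a line joining the same probe set. Red lines are higher and blue lines lower in shCav1, and the dashed line is the median of both arrays at 30.7; FRMD5 and CDC42EP3 drop below it in shCav1, CCDC141 and TTN lie above it only in shCav1, and SSPN is above it on both. Levels of different probe sets are not comparable with each other.

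The spread of differences at each gene's own brightness was narrow. Among the 1000 probe sets nearest to it in mean log2 signal, the robust SD of the log2 difference ran from 0.19 around CDC42EP3 and FRMD5 to 0.21 around CCDC141 and TTN. The share of those neighbours at least 2-fold different in the same direction was 0.3% for FRMD5, 0.2% for CDC42EP3, 0.4% for SSPN, 0.3% for TTN and 0.2% for CCDC141. The number with a difference at least as large as the gene's own was 0 of 1000 for FRMD5, CDC42EP3 and CCDC141, 1 for SSPN and 2 for TTN. These are descriptions of 1 array pair and carry no error rate. Because the genes were chosen past 2-fold on this same difference, the small counts follow from that choice. Neighbours were matched on the mean of both arrays, so they need not be as dim as FRMD5 and CDC42EP3 were in shCav1.

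**Figure D2:**
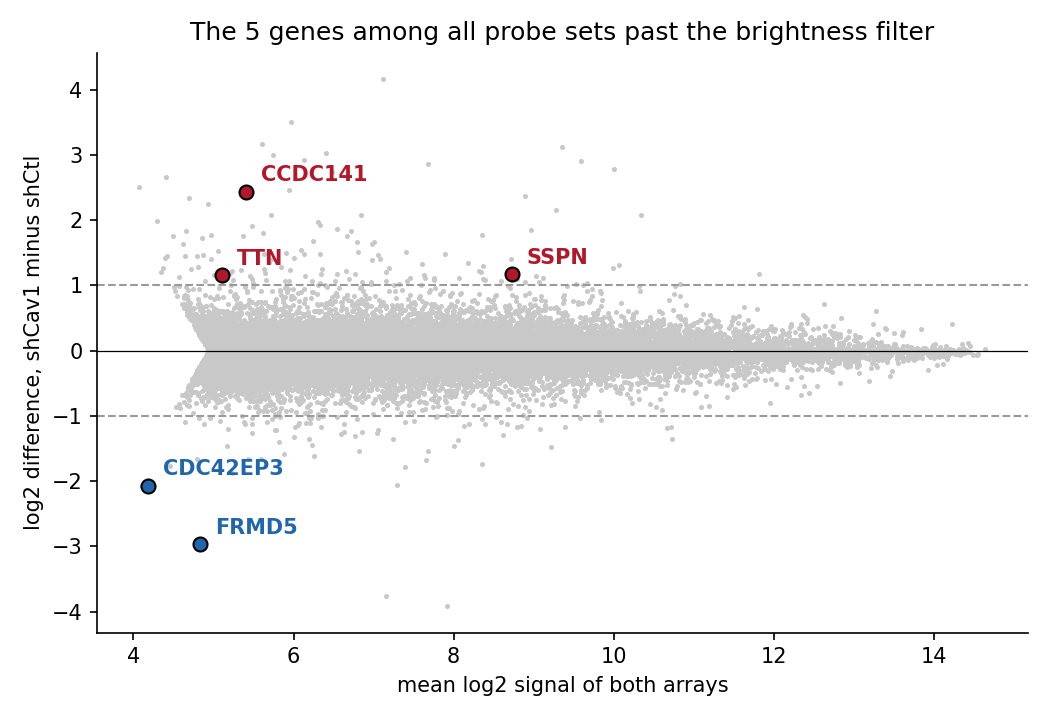
Log2 difference, shCav1 minus shCtl (vertical axis), against the mean log2 signal of both arrays (horizontal axis) for the 28128 probe sets past the brightness filter, in grey, with the 5 genes in colour. Dashed lines mark 2-fold. CDC42EP3 at -2.07, FRMD5 at -2.97, TTN at 1.16 and CCDC141 at 2.43 lie towards the dim end. SSPN at 1.17 lies well inside the bright range.

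Other scalings of the arrays moved the genes little. Bacterial transcripts added at hybridization, with 18 probe sets, read higher in shCav1 by a median log2 difference of 0.14. Centred on them, the log2 difference was 1.03 for SSPN and 1.02 for TTN, just past 2-fold, 2.30 for CCDC141, -2.21 for CDC42EP3 and -3.10 for FRMD5. No direction changed under any of the 5 settings tried, but a pseudocount added to both signals cannot reverse their order. The shifts from median and spike centring were also far smaller than the difference of any of the 5 genes. Control probe sets for the 5' end were lower relative to their 3' partners on the shCav1 array in 12 of 14 control transcripts and spikes, some of which are the same transcript under another name, with a median 5' minus 3' log2 difference of -0.19. Where the probes of the 5 genes lie along their transcripts is not given in the files, and the part of this difference in their values was not tested.

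**Figure D3:**
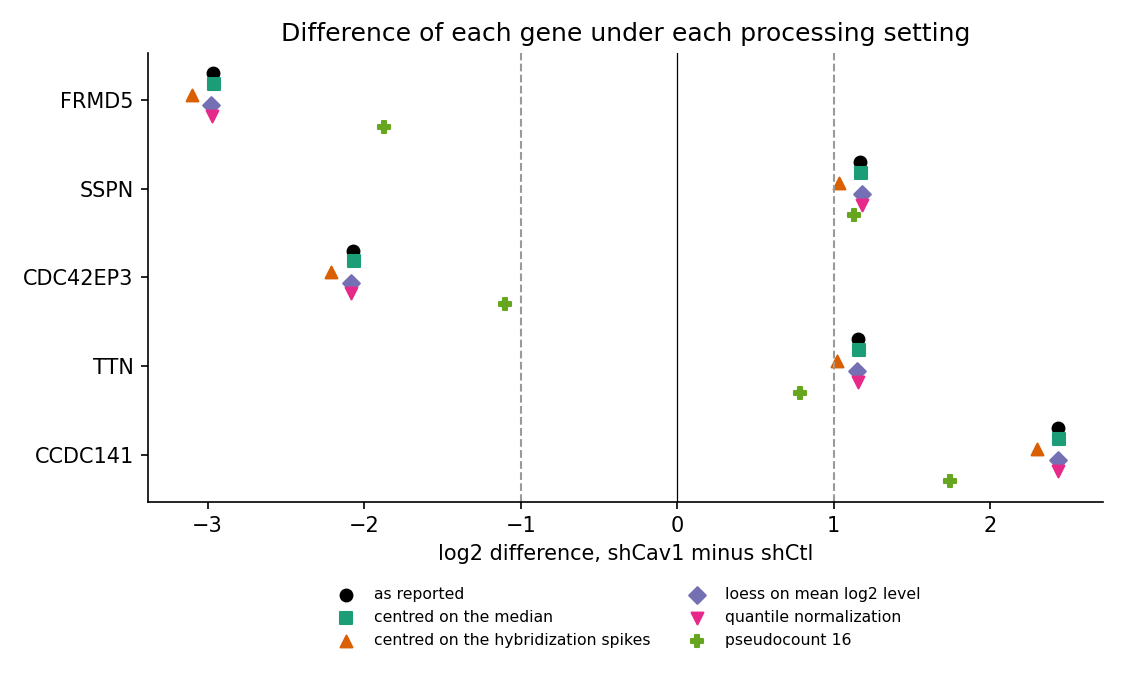
Log2 difference, shCav1 minus shCtl (horizontal axis), of each gene (rows) as reported and under 5 other processing settings (symbols), with dashed lines at 2-fold. The pseudocount of 16 brings FRMD5, CDC42EP3, CCDC141 and TTN towards 0, TTN to 0.79, while the other settings stay within the robust SD of 0.21 of the reported value.

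TTN and CCDC141 are neighbours. In the order of protein-coding genes of GRCh38.p14 no other gene lies between them, both are read from the minus strand, and their annotated spans do not overlap. In the deposited alignments the TTN probe set spans chromosome 2 positions 179390719 to 179672057 and the CCDC141 probe set positions 179697304 to 179710470, both in band 2q31.2, with a gap of 25.2 kb. Both were higher in shCav1, CCDC141 by a fold 2.42 times that of TTN. SSPN also had a listed gene directly beside it, BHLHE41, which encodes a transcriptional repressor of the circadian clock. Its signal was 178.5 in shCav1, against 87.5 in shCtl, a 2.04-fold higher signal that came to a log2 difference of 0.89 when centred on the spikes. The annotated spans of SSPN and BHLHE41 overlap by 3047 bases on opposite strands. Of 185 listed genes placed in this order, 6 had a directly adjacent listed gene, forming 3 adjacent pairs. The genes of 2 pairs differed in the same direction, and these were TTN with CCDC141 and SSPN with BHLHE41. FRMD5 and CDC42EP3 had no listed gene within 5 protein-coding genes on either side.

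Promoter windows from RefSeq (GRCh38.p14, 250 bases before to 50 after an annotated start, 5′ to 3′ on the gene's strand) were available for all 5 genes, with several starts for FRMD5, SSPN and CDC42EP3. They are shown for the adjacent genes CCDC141 and TTN, for SSPN, and for FRMD5, the gene with the largest decrease of the 5. For SSPN and FRMD5 the more upstream of the available windows is shown, which need not be at the outermost annotated start. Capitals mark matches, on either strand, to the TEAD motif GGAATG or to the CArG box of serum response factor, both known from promoters of cytoskeletal genes. The motif TATAAA was searched as well and was in none of these windows. The search letters do not overlap each other in the windows shown.
FRMD5, chr15:44195222-44195521, minus strand: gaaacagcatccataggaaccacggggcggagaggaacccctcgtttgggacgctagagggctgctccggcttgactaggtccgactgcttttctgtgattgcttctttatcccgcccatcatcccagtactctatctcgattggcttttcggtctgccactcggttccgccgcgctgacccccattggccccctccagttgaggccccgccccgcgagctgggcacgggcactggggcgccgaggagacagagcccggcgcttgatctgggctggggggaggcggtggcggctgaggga
SSPN, chr12:26195086-26195385, plus strand: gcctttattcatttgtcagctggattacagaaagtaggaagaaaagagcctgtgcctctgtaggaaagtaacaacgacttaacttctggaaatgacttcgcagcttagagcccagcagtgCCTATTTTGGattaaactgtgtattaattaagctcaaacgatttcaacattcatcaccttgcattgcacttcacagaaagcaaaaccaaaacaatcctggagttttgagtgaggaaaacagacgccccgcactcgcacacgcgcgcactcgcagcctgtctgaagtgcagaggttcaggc
TTN, chr2:178807374-178807673, minus strand: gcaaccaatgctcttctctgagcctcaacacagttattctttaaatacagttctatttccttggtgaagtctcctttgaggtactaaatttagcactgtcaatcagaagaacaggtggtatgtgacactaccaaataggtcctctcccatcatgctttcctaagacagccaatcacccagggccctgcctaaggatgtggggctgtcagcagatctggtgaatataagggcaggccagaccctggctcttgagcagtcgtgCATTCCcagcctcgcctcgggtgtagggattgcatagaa
CCDC141, chr2:179050088-179050387, minus strand: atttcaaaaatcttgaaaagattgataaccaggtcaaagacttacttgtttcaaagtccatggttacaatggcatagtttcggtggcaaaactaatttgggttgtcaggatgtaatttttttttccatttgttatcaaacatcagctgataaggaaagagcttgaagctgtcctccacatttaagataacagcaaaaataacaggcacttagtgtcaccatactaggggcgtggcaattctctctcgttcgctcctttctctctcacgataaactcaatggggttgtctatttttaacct

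CG dinucleotides, the sites of DNA methylation, numbered 5 in the CCDC141 window and 3 in the TTN window, against a median of 14 over 35116 windows of the same length. The GC content of these windows was 37.7% and 48.7%, against a median of 58.7%. The SSPN window shown held 10 CG dinucleotides and the other available SSPN window 33. The 3 CDC42EP3 windows held 7, 37 and 25, and the 2 FRMD5 windows 23 and 20. The count thus varied between starts of the same gene, and values below the median were not particular to the neighbours. The TTN window held 1 TEAD match beginning 11 bases past the start site, a feature of 14.0% of all windows. The SSPN window shown held 1 CArG box beginning 130 bases before the start site, a feature of 1.29% of all windows. The other available SSPN window held none. The windows of FRMD5, CDC42EP3 and CCDC141 held none of the 3 motifs, which says only that these letters are not in these windows.

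The deposited annotation placed 4 of the 5 genes in the cytoskeleton or its membrane links. FRMD5 and CDC42EP3 carry the term cytoskeleton, CDC42EP3 also actin cytoskeleton, TTN actin filament binding and sarcomere organization, and SSPN the dystrophin-associated glycoprotein complex. CCDC141 carries protein binding alone and no cytoskeletal term, so it stands in this group by what is known of it in mouse. Among 179 listed genes with any annotation, 14 carried a term naming the cytoskeleton, actin, microtubules, the sarcomere or dystrophin, and 7 of these were higher and 7 lower. Unlisted probe sets carry no gene name here, so the share of such terms over the whole array is not known. Nothing is read from the count of 14. Of all annotated listed genes 113 were higher and 66 lower. The higher share was thus 50% among the cytoskeletal genes and 63.1% among all annotated ones, and the difference between these shares was not tested. The median absolute log2 difference of the 14 was 1.16, against 1.22 over all listed genes.

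FRMD5 and CDC42EP3 had the largest differences of the 14 in either direction on the scale as deposited. With the pseudocount of 16, CDC42EP3, dim in shCav1, was at -1.10, smaller in size than TRPC4 at 1.58 and SSPN at 1.13. TRPC4, a cation channel tied to the cortical cytoskeleton, was 3.64-fold higher. SCIN, an actin-severing protein, was 2.72-fold higher from a dim shCtl signal of 13.0. AKAP12, a scaffold of protein kinase A at the cortex, was at 41.7% of its shCtl signal, and CRYAB, a small heat shock protein that binds filaments, was 2.34-fold higher. SEMA6A, a membrane semaphorin, was at 46.2%, with both arrays below the median. TUBB4, a tubulin gene, was 2.13-fold higher, with a signal of 73.5 in shCav1, against 34.5 in shCtl. Where a gene had more than 1 listed probe set, the one with the larger difference is given. With the pseudocount of 16, 3 of the 14 stayed at least 2-fold higher and 3 at least 2-fold lower, and centred on the spikes 5 and 7 did.

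**Figure D4:**
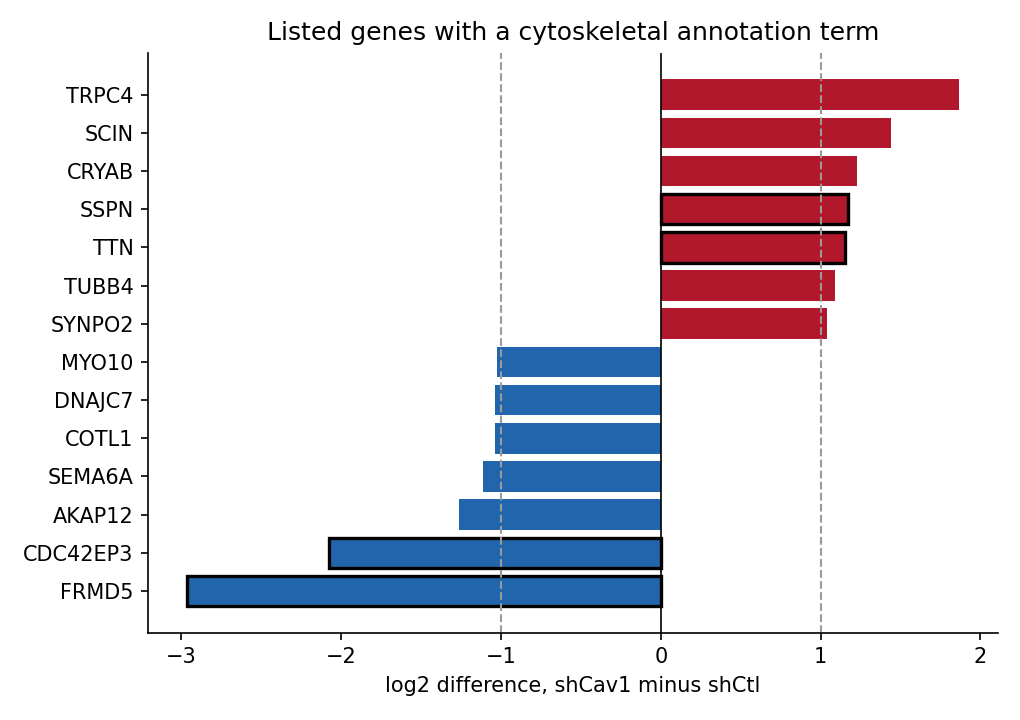
Log2 difference, shCav1 minus shCtl (horizontal axis), of the 14 listed genes whose deposited annotation names the cytoskeleton, actin, microtubules, the sarcomere or dystrophin; red bars are higher and blue bars lower in shCav1, dashed lines mark 2-fold and black outlines mark 4 of the 5 genes described here. FRMD5 at -2.97 and CDC42EP3 at -2.07 have the longest bars on this scale, which has no pseudocount.

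Over 16 gene lists around the functions of the 5 genes, with 359 genes in all, 9 genes were in the deposited tables, 4 higher and 5 lower, and 5 of the 9 were the genes described here. Over the whole array 0.501% of kept probe sets were at least 2-fold higher and 0.299% at least 2-fold lower, and nothing is read from the small count in the lists. Of 34 FERM-domain genes 1 was listed, FRMD5, and of 28 CDC42 effectors and regulators 1, CDC42EP3, while none of the 13 septins was. Of 32 sarcomere genes 1 was listed, TTN, of 20 genes of the dystrophin complex 1, SSPN, and of 10 genes of the centrosomal partners of CCDC141 1, CCDC141 itself. The other listed genes were CAV1 of 16 caveola genes, MYO10 of 27 myosin and contractility genes, ITGA2 of 26 adhesion genes and FGG of 16 hepatocyte markers. MYO10, the myosin of filopodial tips, was at 49.2% of its shCtl signal, and ITGA2, the collagen-binding alpha-2 integrin, at 44.6%. The lists of 18 spectrin, ankyrin and adducin genes, 39 actin regulators, 31 tubulin and microtubule genes and 21 intermediate filament genes held no listed gene. These lists are not complete: SCIN and TUBB4, given above, belong to such families, are in the deposited tables and are not in the lists. The same holds for COTL1, at 48.7% of its shCtl signal, and SYNPO2, 2.06-fold higher, which both carry the term actin binding. Probe sets under 2-fold have no gene name in the tables used here, so smaller differences in these genes could not be examined.

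Of 19 muscle markers and 12 fibroblast and stellate markers none was listed, while the hepatocyte marker FGG was 944 in shCav1, against 263 in shCtl. The levels of the other markers have no gene name here, so the cell type on the label could not be checked. A marker that was not listed may be expressed or not, since listing depends on the difference and not on the level. No probe set past 2-fold lies outside the deposited tables. Any further probe set the array holds for the 5 genes therefore differed by less than 2-fold, unless it is among the 23 listed probe sets without a symbol. Whether such probe sets exist for these genes, and in which direction they lie, was not examined.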

How the data were processed

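Per the submitters' processing notes the arrays were processed with RMA. No version or genome build is stated in the labels or file headers. The deposited series values are log2 values centred by the authors on the mean of both samples, and the difference is shCav1 minus shCtl. It equals the log2 fold of the authors' deposited tables for all 244 entries within 1e-05; these tables also give a linear fold, larger over smaller. Levels in shCtl are the deposited linear signal intensity. The other column, 1 in number, matches no label and was not used, so shCav1 levels are the shCtl signal multiplied by the fold.

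The 62 control probe sets were left out. Probe sets were kept when the brighter array reached the median of all values, which kept 51.5%. No test was run. Entrez identifiers matched all 5 genes to RefSeq. The members and lists were chosen with earlier results of these data known. Genes named are the 5 genes, listed genes of the lists, adjacent listed genes, the 10 largest of the annotated genes and CAV1. IAH1 and GPX2 were added for the limit, and COTL1 and SYNPO2 for the incomplete lists. An annotated gene and a gene list are not reported here and are left out of these counts. Of the deposited process annotations, 16 entries are marked as removed. Alternatives were median, spike, loess (span 0.3) and quantile scaling, a pseudocount of 16, other filters and limits. The counting was tested on simulated data. Python 3.11.15, pandas 2.3.3 and statsmodels 0.14.6 were used.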

Additional observations from a re-analysis of the deposited data

How the results depend on the processing

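The log2 differences of the 5 genes stayed within the robust SD of 0.21 under median centring, spike centring, loess and quantile normalization. Only spike centring was a distinct scaling, because the RMA values already had a median log2 difference of -0.007 over all kept probe sets. With a pseudocount of 16 they were -1.87 for FRMD5, -1.10 for CDC42EP3, 0.79 for TTN and 1.74 for CCDC141, by the construction of a pseudocount on dim signals. SSPN moved by less than that SD. At a 3-fold limit 1 of the 5 genes was higher, CCDC141, and 2 were lower. Over all kept probe sets the counts of 141 higher and 84 lower became 91 and 49 with the pseudocount, 79 and 43 with a filter at the 75th percentile, 552 and 578 at 1.5-fold, and 42 and 16 at 3-fold. Centred on the spikes they were 102 and 142, so the higher share depends on the scaling. Of the list genes, 2 were higher and 3 lower at 3-fold, against 4 and 5 at 2-fold. No paired analysis was possible because there is a single array per group. Low signal limits FRMD5 and CDC42EP3 in shCav1, and TTN and CCDC141 in shCtl.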
